A study of Homo sapiens with 6 samples.

Results

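The mitochondrial ribosomal protein genes are the protein-coding genes of the deposited read table whose symbols begin with MRPL or MRPS. This rule used names only and took 78 genes of the 28675 in the table, of which 16579 were protein coding. By known role, 51 encode proteins of the large ribosomal subunit and 26 of the small subunit, and 1, MRPS36, carries the prefix but is now known as a subunit of the 2-oxoglutarate dehydrogenase complex. All 78 passed the filter on low counts, so the counts below are over every gene the rule took.

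The genes were measured by mRNA sequencing in MDA-MB-231, an established cell line from a triple-negative breast cancer, which lacks estrogen and progesterone receptors and HER2 amplification. One group of 3 libraries came from cells labelled as a no-load control and the other group of 3 from cells labelled as overexpressing LARP6, a La-related RNA-binding protein. The study asked which RNAs LARP6 binds and regulates in this cancer, and the values per gene address RNA level only. The labels give neither the vector, the time after its introduction nor whether the cells were 1 clone, and they do not say that libraries of a group were separate cultures, so p-values measure a spread between libraries that may be technical.

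Mitochondrial ribosomes translate the few mRNAs encoded by mitochondrial DNA, all of which specify subunits of the respiratory chain and ATP synthase. Their RNAs come from mitochondrial DNA, whereas every protein of the particle is encoded in the nucleus, made in the cytosol and imported. Some of these proteins have bacterial counterparts and others were added during the evolution of mitochondria, and the genes are scattered over the genome: here the 78 lie on 21 chromosomes, with at most 8 on any of them.

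Some stretches of sequence show how these genes differ in base composition, with which the changes below varied, and what their 5′ ends look like. The first pair shows the first 120 bases of the longest coding exon, on GRCh38 in GENCODE v29, of MRPL41 (chr9:137552082-137552201, plus strand) and MRPL50 (chr9:101390731-101390850, minus strand), the members with the highest and the lowest GC content.
MRPL41 coding exon: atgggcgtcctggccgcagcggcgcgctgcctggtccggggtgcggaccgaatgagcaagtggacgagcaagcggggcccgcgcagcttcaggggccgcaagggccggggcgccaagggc
MRPL50 coding exon: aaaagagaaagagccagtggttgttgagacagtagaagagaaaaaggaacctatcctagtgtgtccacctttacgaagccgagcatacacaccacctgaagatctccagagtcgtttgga
GC made up 75.8% of the MRPL41 stretch and 45.8% of the MRPL50 stretch. Over whole transcripts the shares were 72.0% and 35.0%.

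The second set shows 100 bases upstream of the RefSeq start site (GRCh38.p14) for 4 of the members whose RNA was lower with LARP6: MRPS18A (chr6:43687792-43687891, minus strand), MRPL43 (chr10:100987498-100987597, minus strand), MRPL37 (chr1:54200067-54200166, plus strand) and MRPS24 (chr7:43869518-43869617, minus strand). Capitals mark CCGGAAG, the core letters that ETS transcription factors bind, which the first pair carries and the second lacks in these stretches.
MRPS18A upstream: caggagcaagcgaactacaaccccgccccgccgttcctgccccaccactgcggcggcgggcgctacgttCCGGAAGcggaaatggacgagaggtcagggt
MRPL43 upstream: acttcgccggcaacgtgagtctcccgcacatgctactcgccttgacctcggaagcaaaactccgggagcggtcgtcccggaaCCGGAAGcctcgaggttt
MRPL37 upstream: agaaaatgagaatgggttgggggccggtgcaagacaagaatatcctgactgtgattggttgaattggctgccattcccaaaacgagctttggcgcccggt
MRPS24 upstream: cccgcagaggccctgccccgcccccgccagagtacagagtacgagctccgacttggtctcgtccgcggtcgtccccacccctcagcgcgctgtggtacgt
The last pair shows 26 bases around GATGGCG (in capitals), the core letters that the factor YY1 is known to bind, in MRPS24 (chr7:43869481-43869506, minus strand) and MRPS18A (chr6:43687765-43687790, minus strand).
MRPS24 start: cttggcccaaGATGGCGgcctccgtg
MRPS18A start: ggtttttgaaGATGGCGgccctcaag
The letters ATG within it can also be a start codon.

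Total counts ran from 29409101 to 33387050 per library, and libraries of a group differed with a per-gene chi-square between 2.05 and 3.62 (16157 genes), so each was kept as its own replicate. LARP6 matched the labels in all 6 libraries, with 40.7 to 44.2 CPM (read counts scaled to library size with TMM) in controls and 1995 to 2198 in LARP6 libraries. Of 6 genes known to be high in this line, all were expressed and 2, VIM and CAV1, were called higher with LARP6. CD44 of the same list was at 749.3 to 768.9 CPM in controls and 701.6 to 740.2 CPM with LARP6 (log2 fold change -0.07, edgeR adjusted p = 0.0672). The summed level of the 6, to which VIM gave the most, was 5941 to 6051 CPM in controls and 6170 to 6290 in LARP6 libraries. Of 5 genes known to be low in it, ESR1 was at 0.00 and 0.011 CPM in the group means, and the 5 summed to 19.2 to 19.9 CPM in controls and 17.1 to 18.4 in LARP6 libraries. Leukocyte markers (4 of 5 listed genes used) summed to 0.305 to 0.755 and 0.592 to 0.946 CPM, and 5 fibroblast markers to 4.998 to 6.696 and 4.996 to 6.021 CPM. The part of these shifts in the results below was not tested. In bulk RNA a gene's lower level can come from fewer cells that express it or from less RNA per cell, and these cannot be told apart here.

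With LARP6, 8 mitochondrial ribosomal protein genes had lower RNA levels than in controls and none had a higher one, by edgeR's quasi-likelihood test with calls at 0.05 after Benjamini-Hochberg adjustment over 16226 genes. The falls were small, between 7.05% and 9.40%. The 8 are MRPS2 and MRPS24 of the small subunit and MRPL4, MRPL34, MRPL37, MRPL41, MRPL43 and MRPS18A of the large subunit. The share called lower was 10.3% of members, against 3.60% of all genes tested, and 0 of 78 were called higher, against 2.43%. DESeq2 and limma-voom also called 0 higher, against 2.02% of the 8105 genes with an adjusted p in DESeq2 and 2.27% of all genes in limma-voom. None had a positive change at an unadjusted edgeR p below 0.05, where 19 were lower (10.3% and 8.75% of all genes lower and higher). Members are well expressed, and among the 10136 genes at or above the lowest member's mean of 7.75 CPM the share called lower was 5.49%. That bound is a floor and does not match genes to the members in level.

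The shift reached beyond the genes called. The log2 fold change (LARP6 over control) was below 0 in 59 of 78 members, or 75.6%. It was below 0 in 48.8% of all genes tested and in 50.8% of those at or above that floor. Its median was -0.047 over members, a change of -3.18%, and 0.0038 over all genes tested. All 3 LARP6 libraries lay below all 3 controls in 22 members and above them in 2, MRPS25 and MRPS10, while 54 overlapped. For all genes tested these shares were 11.7% below and 10.6% above, and 15.1% below among genes at or above the floor. The median standard error of the log2 fold change was 0.04 for members, 0.05 for genes at or above the floor and 0.08 for all genes.

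**Figure D1:**
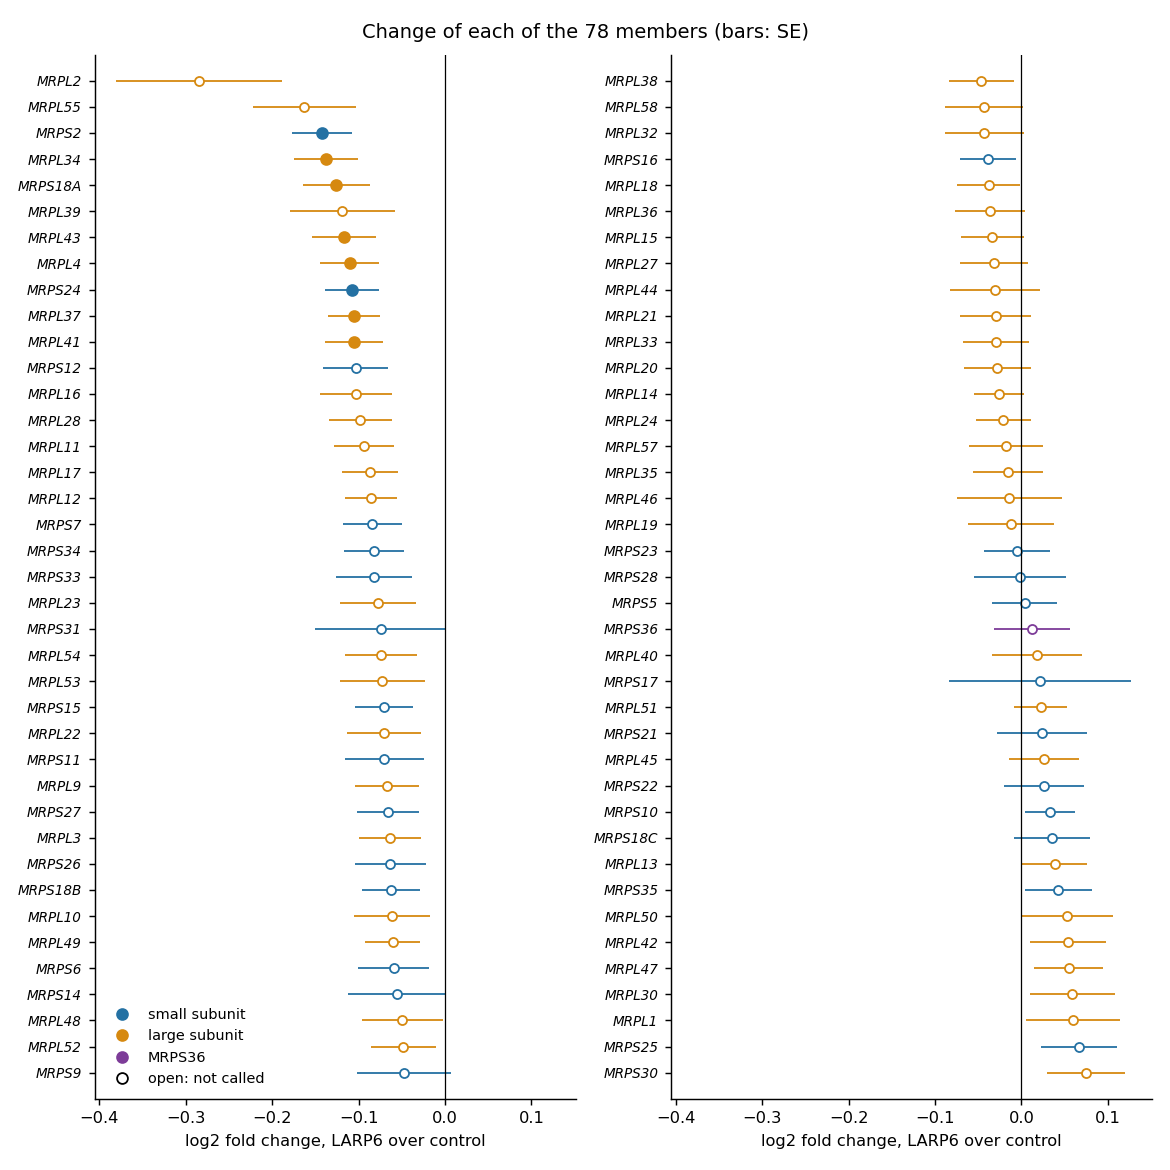
Log2 fold change (LARP6 over control, with its standard error) of each of the 78 genes, ordered by size and marked by ribosomal subunit and by whether the edgeR test called it lower. The values run from -0.28 in MRPL2 to 0.07 in MRPS30, and 59 lie below 0.

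Added up, the 78 genes summed to 6122, 6210 and 6216 CPM for controls 1, 2 and 3. The sums with LARP6 were 5926, 6027 and 6003 CPM in the same order. Every LARP6 library was below every control, and the mean went from 6183 ± 52.4 to 5985 ± 52.7 CPM (SD, n = 3 each), a change of -3.20%. The change was -2.98% for the small subunit, -3.37% for the large subunit and -2.36% for the 70 genes that were not called. With library sizes left unscaled the sums were 6099, 6169 and 6114 CPM in controls and 6019, 6077 and 6021 CPM with LARP6. That change was -1.44%, and the LARP6 libraries were still below the controls. For the 70 genes not called the unscaled sums were 5148, 5220 and 5168 CPM in controls and 5139, 5178 and 5127 CPM with LARP6. Those groups overlapped, at a change of -0.590%. The median log2 fold change of all genes was 0.0038 with and 0.0299 without the scaling.

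The small-subunit gene with the smallest p was MRPS2, the counterpart of a bacterial protein on the solvent side of the small subunit (chr9:135499984-135504673, plus strand, GRCh38 in GENCODE v29, as are the loci that follow). Its levels were 110.0, 108.2 and 109.9 CPM in controls and 99.8, 98.2 and 99.3 CPM with LARP6. The groups were tight and did not overlap, and the gene fell by 0.14 on the log2 scale (SE 0.03, edgeR adjusted p = 0.00353), from 109.4 ± 0.979 to 99.1 ± 0.803 CPM (SD, n = 3 each). MRPS24 (chr7:43866558-43869893, minus strand) encodes the counterpart of a bacterial protein at the site where mRNA enters. It was at 156.9, 161.8 and 164.1 CPM in controls and 144.1, 152.8 and 151.0 CPM with LARP6. All LARP6 libraries were below the lowest control, at a change of -0.11 on the log2 scale (SE 0.03, edgeR adjusted p = 0.0201). The other 24 small-subunit genes were not called, and the median log2 fold change of the 26 was -0.058, with 18 below 0.

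In the large subunit, MRPL34 (chr19:17292609-17306843, plus strand), which has a bacterial counterpart, was at 94.7, 95.1 and 93.5 CPM in controls. It was at 85.7, 90.03 and 81.7 CPM with LARP6, where the libraries spread more widely but all stayed below the controls. The gene fell by 0.14 on the log2 scale (SE 0.04, edgeR adjusted p = 0.00983). MRPL4 (chr19:10251901-10260045, plus strand), the other called gene of this class, encodes a protein that reaches into the tunnel through which new chains leave. Its levels were 115.7, 111.7 and 112.7 CPM against 104.3, 103.7 and 107.1 CPM, without overlap, at a change of -0.11 on the log2 scale (SE 0.03, edgeR adjusted p = 0.0329).

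The remaining 4 called genes encode proteins specific to mitochondrial ribosomes or moved to a new place in them. MRPL37 (chr1:54184041-54225464, plus strand) was at 176.8, 176.8 and 177.3 CPM in controls and 162.4, 167.0 and 163.9 CPM with LARP6. Its controls agreed within 1 CPM and all LARP6 libraries were lower, with a change of -0.11 on the log2 scale (SE 0.03, edgeR adjusted p = 0.0182). MRPL41 (chr9:137551199-137552555, plus strand), the member richest in GC, was at 126.3, 125.9 and 130.3 CPM against 113.0, 118.7 and 123.8 CPM. Its LARP6 libraries were spread, the highest of them just under the lowest control, and the log2 fold change was -0.11 (SE 0.03, edgeR adjusted p = 0.0383). MRPL43 (chr10:100969458-100987515, minus strand) was at 96.1, 97.0 and 95.02 CPM against 84.2, 89.8 and 91.6 CPM, again without overlap, at -0.12 (SE 0.04, edgeR adjusted p = 0.0351).

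**Figure D2:**
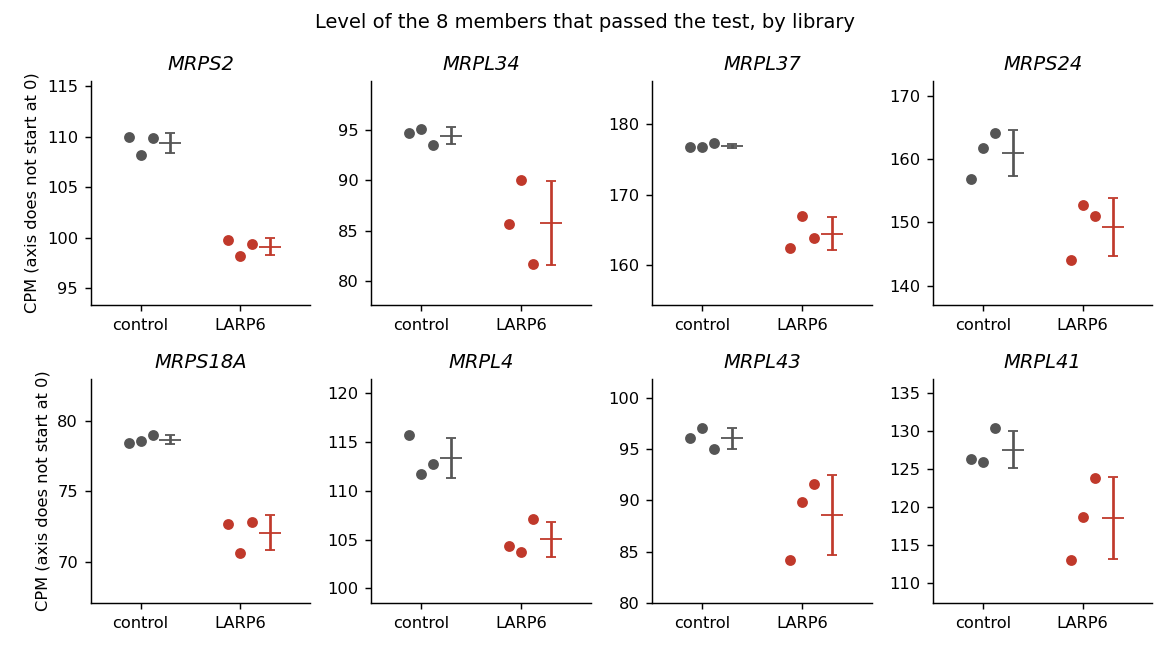
CPM of the 8 genes called lower in each of the 3 control and 3 LARP6 libraries, with group means and SDs. In every gene the highest LARP6 library is below the lowest control, and group means differ by 7.05% to 9.40%. The genes were picked by the test on these same libraries, so this separation is not separate support.

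MRPS18A, MRPS18B and MRPS18C are 3 relatives of a single bacterial small-subunit protein. The proteins of MRPS18B and MRPS18C sit in the small subunit and that of MRPS18A in the large subunit. MRPS18A (chr6:43671303-43687791, minus strand) was at 78.4, 78.5 and 79.0 CPM in controls and 72.7, 70.6 and 72.9 CPM with LARP6, without overlap, at a change of -0.13 on the log2 scale (SE 0.04, edgeR adjusted p = 0.0307). MRPS18B was at 121.8, 127.4 and 132.5 CPM against 117.9, 121.0 and 126.7 CPM, groups that overlap, at -0.06 (SE 0.03, edgeR adjusted p = 0.306). MRPS18C was at 53.7, 55.5 and 50.9 CPM against 53.7, 56.2 and 54.0 CPM, at 0.04 (SE 0.04, edgeR adjusted p = 0.730). Their transcripts held 58.4%, 51.5% and 38.9% GC in the same order. Whether the 3 changes differ from each other was not tested.

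The 5 genes of the stalk, the flexible arm and its base that recruit translation factors, were all below 0 in log2 fold change, and none was called. At an unadjusted edgeR p below 0.05, 2 were lower, MRPL12 and MRPL11. MRPL12, whose product is also known to bind the mitochondrial RNA polymerase, was at 180.2, 191.5 and 181.0 CPM against 172.0, 173.3 and 175.5 CPM, at -0.09 (SE 0.03, edgeR adjusted p = 0.0725). The groups did not overlap in MRPL12, MRPL11 and MRPL54. Among all genes tested, 11.7% had every LARP6 library below every control. MRPL11 gave -0.09 (edgeR adjusted p = 0.0885), and MRPL10, MRPL53 and MRPL54 gave -0.06, -0.07 and -0.07, with adjusted p-values of 0.331 to 0.480. None of the 8 genes of the central protuberance, the crown that faces the small subunit, was called, with 7 below 0 and a median of -0.045. None of the 8 at the mouth of the exit tunnel was called either, with 6 below 0 and a median of -0.050. In each of these last sets 1 gene was lower at an unadjusted edgeR p below 0.05, where 10.3% of all genes tested were lower.

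By subunit, 41 of 51 large-subunit genes and 18 of 26 small-subunit genes had a log2 fold change below 0, with medians of -0.043 and -0.058. By origin, 37 of 46 genes with bacterial counterparts and 22 of 31 mitochondria-specific genes were below 0, with medians of -0.045 and -0.048 and 4 called lower in each. The differences between these classes were not tested.

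The largest change among the 78 was that of MRPL2, whose product is the counterpart of a core bacterial protein near the peptidyl transferase centre. It was at 10.6, 9.93 and 10.6 CPM in controls and 8.58, 7.99 and 8.95 CPM with LARP6. The groups did not overlap, but at this low level the gene missed the threshold, at -0.28 (SE 0.10, edgeR adjusted p = 0.0561). MRPL55 was next among genes not called, at 32.9, 29.4 and 28.4 CPM against 25.9, 26.6 and 28.5 CPM, with overlap and a change of -0.16 on the log2 scale (SE 0.06, edgeR adjusted p = 0.0830).

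No member was called higher. MRPS30, which encodes a large-subunit protein despite its name, had the largest positive value, at 47.8, 51.4 and 48.5 CPM against 51.4, 53.6 and 50.6 CPM, with overlap (log2 fold change 0.07, SE 0.05, edgeR adjusted p = 0.380). MRPS25 was at 52.0, 50.9 and 51.5 CPM against 52.4, 53.6 and 55.7 CPM, without overlap (0.07, SE 0.04, edgeR adjusted p = 0.438). MRPL1 gave 0.06 (SE 0.05, edgeR adjusted p = 0.608). In MRPS10 the groups also did not overlap, at 203.7 to 205.0 CPM in controls and 205.6 to 212.0 CPM with LARP6, and the change was 0.03 (SE 0.03, edgeR adjusted p = 0.592). MRPS36, the non-ribosomal member, was at 52.8, 53.2 and 53.7 CPM against 55.5, 54.0 and 51.7 CPM, at 0.01 (SE 0.04, edgeR adjusted p = 0.919).

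The changes varied with the GC content of the transcripts. Across the 78 genes Spearman's correlation of log2 fold change with GC content was -0.63, and across 16055 tested genes with a GC value it was -0.32. These are descriptions across genes of the same 6 libraries, and genes are not independent replicates. The 8 called members had a median GC content of 59.0% and the other 70 a median of 49.2%, while the medians were 50.5% for all members and 49.9% for all genes tested.

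At 55% GC or more, all 22 members were below 0, 7 were called lower (31.8%) and the median log2 fold change was -0.092. Among the 3305 genes of that GC content at or above the lowest member's mean CPM, 75.4% were below 0, 12.5% were called lower and the median was -0.052. Below 55% GC, 37 of 56 members were below 0, 1 was called lower (MRPL37, 1.79% of the 56) and the median was -0.029. Among the 6801 genes of that kind, 38.9% were below 0, 2.07% were called lower and the median was 0.023. The members' medians were lower than those of genes above this floor in both ranges, while the share called was near the background below 55% GC. The floor does not match genes to the members in level.

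**Figure D3:**
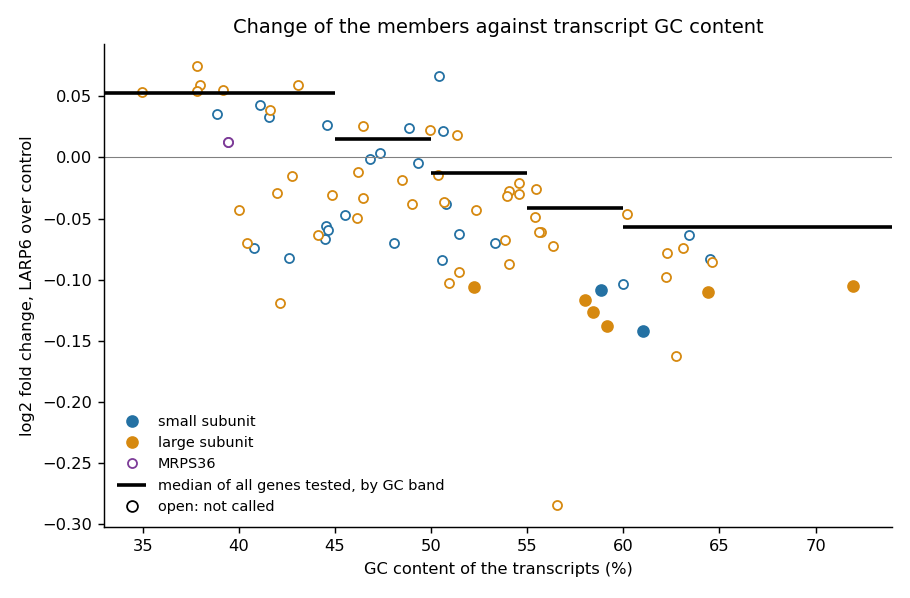
Log2 fold change (LARP6 over control) of each of the 78 genes against the GC content of its transcripts in percent, filled where called lower, with black lines for the median of all genes tested in each GC band. All 22 members at 55% GC or more lie below 0, and 7 of the 8 genes called lower are among them.

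Per library, the median deviation of the members from the control mean was -0.011, 0.0046 and 0.0061 (log2) in the controls, and -0.052, -0.033 and -0.040 with LARP6 (each in the order 1 to 3). All 3 LARP6 libraries were thus lower than any control. Over all tested genes with at least 55% GC the same values were 0.0034, -0.012 and 0.013 in controls and -0.060, -0.060 and -0.023 with LARP6. In these genes too every LARP6 library was lower than any control. The order of the LARP6 libraries differed, with library 3 nearest to the controls for GC-rich genes and library 2 for the members.

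When each library's trend on GC content and transcript length was taken out with offsets, 69 of 78 members (88.5%) had a log2 fold change below 0, against 53.9% of all genes. The median was -0.040 for members and -0.0092 for all genes, and the correlation with GC content was 0.090 over members. Only 2 members were called lower in that fit, against 2.59% of all genes. They were MRPL37, at -0.10 (SE 0.03, edgeR adjusted p = 0.0278), and MRPL22, a protein of the exit tunnel, at -0.15 (SE 0.04, edgeR adjusted p = 0.0195). MRPL22 was at 58.1, 62.7 and 62.8 CPM in controls and 60.2, 58.8 and 56.1 CPM with LARP6 before the offsets, with overlap, and has 40.4% GC. The direction of the members' median therefore held with the trend removed, and 7 of the 8 calls did not. Those 7 genes still had log2 fold changes below 0, from -0.09 in MRPL34 to -0.05 in MRPL4, with edgeR adjusted p-values of 0.0965 to 0.416.

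The number of calls also changed when a library was left out, which leaves 2 libraries in its group. With all 6 libraries 3.60% of all genes were called lower, and the part of the smaller group in the lost calls was not tested. The number was 5, 1 and 4 without control library 1, 2 or 3 (2.79%, 2.34% and 2.38% of all genes). It was 2, 3 and 10 without LARP6 library 1, 2 or 3 (1.71%, 1.7% and 3.89%), while the median log2 fold change kept between -0.052 and -0.036. Among these, MRPS34 was called lower only without control library 1, MRPL55 without control library 3 or LARP6 library 3, and MRPL28 and MRPS12 only without LARP6 library 3. With DESeq2 the number was 4 of the 75 members with an adjusted p. Of the 8105 genes with one, 5.06% were called lower, so the members' share was near the background there. The number was 1 with unscaled library sizes (1.87% of all genes tested) and 0 with limma on log2 of the deposited FPKM values plus 1 (0.685%). At an unadjusted p below 0.05 that FPKM fit had 13 members lower and 3 higher, and the fit with unscaled library sizes 14 lower and 4 higher, where the scaled edgeR test had none higher. The shares of all genes at that p were not taken in these fits, so the counts have no background. The median log2 fold change of all genes was 0.0168 in the FPKM fit and 0.0299 with unscaled library sizes. MRPS2 was called in 16 of 21 alternative fits, MRPL34 and MRPL37 in 13, MRPS24 in 11 and the other 4 genes in 8, and none of the 8 changed sign in any. All these fits reuse the libraries by which the 8 were picked.

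**Figure D4:**
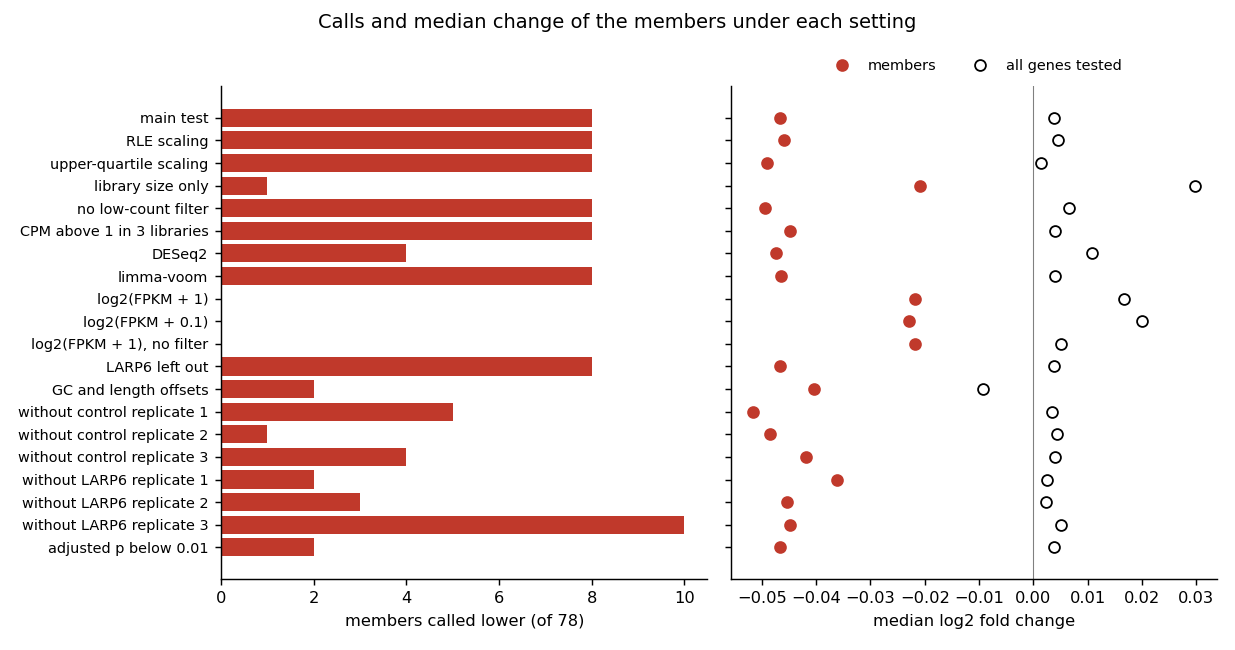
Number of the 78 genes called lower (left, bars from 0) and median log2 fold change of the members and of all genes tested (right) under the edgeR test used in the text and its alternatives, the fits with a replicate block not drawn. Calls in the fits drawn run from 0 to 10, and the members' median is below 0 and below that of all genes in every fit shown.

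To compare levels between genes, the authors' FPKM values, which are per length, were used. The order ran over a 70.5-fold range with a median of 23.4 FPKM: 4 genes were at 100 FPKM or more, 59 between 10 and 100, and 15 below 10. MRPL14, a core protein at the contact between subunits, was highest, with a mean of 205.0 FPKM over the 6 libraries (200.6 to 207.8). MRPL41 followed at 186.4, MRPL12 at 156.4, MRPL51 at 107.0 and MRPS34 at 91.4 FPKM, and these 5 held 27.2% of the summed FPKM. Lowest were MRPL19 at 4.02, MRPL2 at 3.83, MRPL46 at 3.57, MRPS17 at 3.26 and MRPL42 at 2.91 FPKM. Of 77 pairs of neighbours in this order, 65 overlapped over the libraries, so most adjacent ranks do not differ beyond their spread.

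The gene lengths behind these values differ from transcript lengths. Dividing counts by FPKM gave an implied length of 659 to 18510 bases, with a median of 2880, against a median transcript length of 865 bases in GENCODE. For MRPL42 the implied length was 18510 bases and the median transcript 847.5, and for MRPL41 they were 659 and 1262. On CPM per kilobase of the median transcript MRPL42 ranked 51 in place of 78 and MRPL41 33 in place of 2, and Spearman's correlation between both scales over the 78 genes was 0.64. The comparison of LARP6 with control libraries does not use these lengths.

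**Figure D5:**
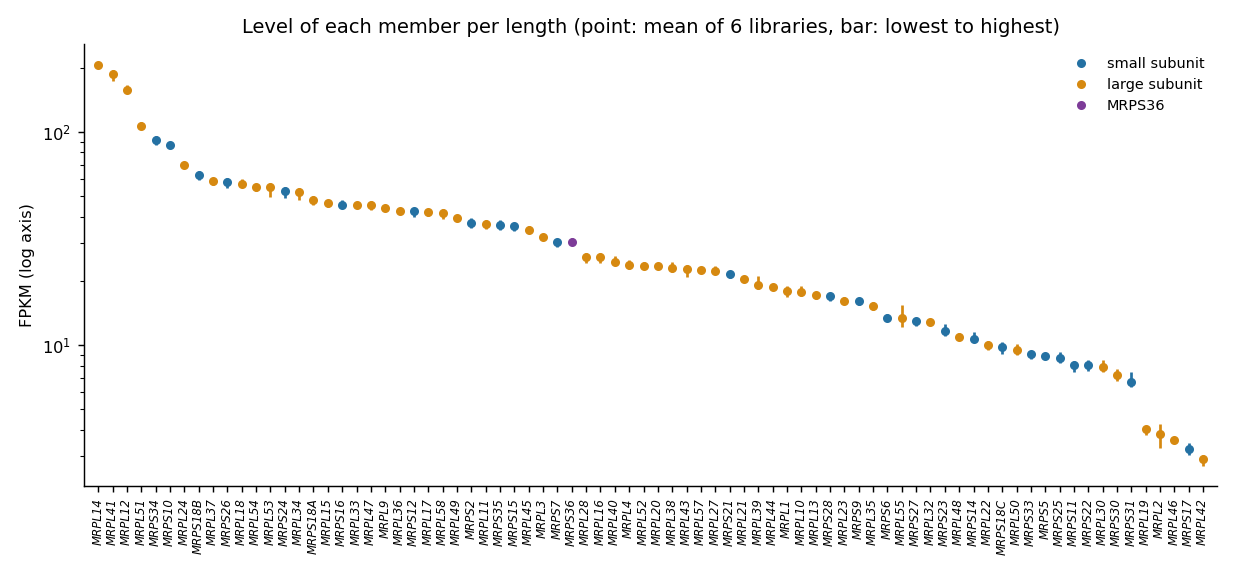
FPKM as deposited, on a log axis, for the 78 genes in order of their mean, coloured by ribosomal subunit. Points are means over all libraries, and bars run from the lowest to the highest library. The order runs from MRPL14 at 205.0 to MRPL42 at 2.91 FPKM, and 65 of 77 neighbouring pairs overlap.

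Windows of 300 bases around RefSeq start sites (250 before and 50 after) were found for 69 of the 78 genes, 85 windows in all, and were searched on both strands. CCGGAAG was in 33 of the 85 windows (38.8%) and in 10.3% of all 35116 promoter windows. It was in 2 of the 8 called genes, MRPS18A and MRPL43, and in 28 of 61 others, and the median log2 fold change was -0.045 in genes with it and -0.060 in genes without. GATGGCG was in 16 windows (18.8%) against 4.203% of all windows, in 3 called genes, MRPS2, MRPS18A and MRPS24, and in 13 of 61 others. GCATGCG, the core letters bound by the nuclear respiratory factor NRF1, was in 7 windows (8.24%) against 3.91%, in 0 of the 8 called genes and 7 of the others. Neither strand of any of these motifs contains another of them, and a match is a description of the window, not a site in use.

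Another 5 genes encode proteins of the same ribosome under other names. GADD45GIP1, also called CRIF1, lies at the exit tunnel and fell from 137.1 ± 2.44 to 124.1 ± 1.13 CPM (SD, n = 3 each), with 139.8, 136.5 and 135.1 CPM in controls and 122.9, 124.4 and 125.1 CPM with LARP6. The groups did not overlap, and the log2 fold change was -0.14 (SE 0.03, edgeR adjusted p = 0.00131). The other 4 were not called. AURKAIP1 was at -0.09 (edgeR adjusted p = 0.0824), and the GTP-binding protein gene DAP3 at 0.08 (0.143), PTCD3 at 0.06 (0.478) and CHCHD1 at 0.01 (0.891).

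For genes that build or serve the ribosome, the counts stand against 3.60% of all genes tested called lower and 2.43% called higher. At an unadjusted edgeR p below 0.05, 10.3% of all genes tested were lower and 8.75% higher. Of 25 tested assembly and rRNA modification factors, 0 were called by edgeR, DESeq2 or limma-voom and 3 had an unadjusted edgeR p below 0.05, with a median log2 fold change of -0.040. The GTPase gene MTG2 gave -0.10 (edgeR adjusted p = 0.154) and the rRNA methyltransferase gene METTL15 gave 0.20 (0.191). Of 14 tested translation factors, 0 were called by edgeR, DESeq2 or limma-voom and 1 had an unadjusted edgeR p below 0.05. It was OXA1L, which inserts new chains into the inner membrane, at 150.8, 151.2 and 151.8 CPM against 141.2, 141.2 and 143.3 CPM, without overlap (-0.09, SE 0.03, edgeR adjusted p = 0.0567). The elongation factor gene TUFM gave -0.04 (edgeR adjusted p = 0.411).

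Of 28 mitochondrial transcription and RNA processing genes, 0 were called by edgeR, DESeq2 or limma-voom. At an unadjusted edgeR p below 0.05 there were 4, 2 lower and 2 higher, against 10.3% and 8.75% of all genes tested. The smallest p-values were those of FASTKD4, listed as TBRG4, at -0.09 (edgeR adjusted p = 0.103) and FASTKD1 at 0.24 (0.148), both regulators of mitochondrial RNA stability. Of 11 nuclear regulators of mitochondrial genes, 1 was called, ESRRA, the estrogen-related receptor alpha. It was at 100.2, 100.8 and 104.7 CPM in controls and 94.1, 90.1 and 94.5 CPM with LARP6, without overlap, and fell by 0.13 on the log2 scale (SE 0.04, edgeR adjusted p = 0.00995). ESRRA transcripts hold 64.1% GC and those of GADD45GIP1 60.3%. With the GC and length offsets GADD45GIP1 was still called lower, ESRRA was not, and OXA1L and SSBP1, a DNA-binding protein of mitochondrial nucleoids, were.

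Where genes overlap, reads can be shared between them, and the strand setting of the counting is not given in the sources used here. Of the 78 genes, 49 overlap another GENCODE gene and 38 a protein-coding one, and among the 8 called genes only MRPL41 overlaps none. MRPL34 shares its locus with ABHD8 on the other strand, which had 4926 counts to its 16647 over the 6 libraries and a log2 fold change of -0.14 (edgeR adjusted p = 0.155). MRPS24 shares exons with the read-through gene URGCP-MRPS24, which had 211 counts to its 28679. Among 11 pseudogenes of the family in the table, MRPS31P5 had the highest share of its parent's counts, 18.6% of those of MRPS31, and MRPL45P2 the most counts, 656 or 5.30% of those of MRPL45. Neither parent was called.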

How the data were processed

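RNA of 3 control and 3 LARP6 libraries was sequenced as paired reads of 150 bases after a strand-keeping mRNA preparation, per the labels. The authors deposited read counts per gene and FPKM values, that is counts scaled by gene length and depth. Per the submitters' processing notes, HISAT2, DESeq2 and GRCh38 were used. The sources used here give no counter, strand setting or annotation. Counts as deposited were filtered and scaled by TMM and tested with edgeR 4.0.16 (robust quasi-likelihood) in R 4.3.3 without covariates, with p-values adjusted over 16226 genes and calls at 0.05. The coefficient of variation between libraries was 3.23%. Depth was 29409101 to 33387050 counts per library. GC content, lengths and loci are those of GENCODE v29. GC and length offsets were smooth trends fitted per library (mgcv 1.9.3).

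Genes named are all called members, the 5 highest and 5 lowest in FPKM, the 3 largest changes in each direction, the MRPS18, stalk and other-name proteins, MRPS36, LARP6, members called anew in an alternative that moved the count by over 1.5 times, and up to 4 called genes, or the 2 with the smallest p, per further list. MRPS10, MRPL28, MRPS12, CD44, SSBP1, VIM, CAV1, ESR1 and the overlapping genes were named after their values were seen. The members and lists were chosen with earlier results of these data known. Alternatives were other scalings and filters, DESeq2 1.42.0, limma 3.58.1 (voom, and log2 FPKM with a pseudocount of 1 or 0.1 and a minimum of 1 FPKM in 3 libraries), a replicate block, the offsets, a threshold of 0.01, LARP6 left out and each library left out. Whether the tests recover falls as small as those of the called members was not tested.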

Additional observations from a re-analysis of the deposited data

How the results depend on the processing

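The 8 members called lower were 8 with RLE or upper-quartile scaling, without the low-count filter, with CPM above 1 in 3 libraries, with limma-voom and with LARP6 left out. In these fits 1.82% (no filter) to 4.20% (CPM above 1) of all genes were called lower. The members called lower were 1 with library size only (MRPS2) and 4 of 75 with an adjusted p in DESeq2 (MRPS2, MRPL34, MRPL37 and MRPS24). They were 2 with GC and length offsets and 2 at an adjusted p below 0.01 (1.82% of all genes). In each of the 3 fits to log2 FPKM they were 0. Those fits called 0.685% of all genes lower with either pseudocount and 0.00706% without the filter, so 0 members is near the background there. Leaving out a library gave 1 to 10 lower, the lowest without control library 2 and the highest without LARP6 library 3. 0 members were called higher in any fit. The median log2 fold change of -0.047 became -0.021 with library size only, -0.022 with log2(FPKM + 1), filtered or not, and -0.023 with a pseudocount of 0.1, and was -0.052 to -0.036 with a library left out. The summed CPM changed by -1.44% in place of -3.20% with library size only and by -3.67% to -2.72% with a library left out. In the further lists, the 2 genes called lower became 0 in the 3 FPKM fits, where the shares of all genes are those above. They became 1 to 2 with a library left out. The 0 called higher became 1 with library size only (DAP3) and 0 to 1 with a library left out (FASTKD1, without control library 1).

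With the replicate number as a block, 12 members were called lower, the 8 and MRPL2, MRPL11, MRPL12 and MRPL17, and 4 genes of the further lists. The share of all genes called lower rose too, from 3.60% without the block to 5.10% with it. The block with GC and length offsets gave 3 members (MRPL3, MRPL22 and MRPL37), against 3.46% of all genes. Whether the numbers pair the libraries was not tested. Deviations of same-numbered libraries correlated at 0.035, 0.0073 and 0.050, and those of differently numbered ones at -0.063 to 0.029. Each library correlated best with its own number except library 2 of either group. The cause of the lost calls was not tested.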
